A study of Homo sapiens with 2 samples.

Results

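The genes described here are PFAS, IMPDH2, CTPS1 and CTPS2, which encode 2 enzymes of purine synthesis and the 2 human CTP synthases. They were taken by gene symbol, 4 of the 14812 genes that the platform annotation names on the array, and each was read by 1 probe set (a group of short probes for 1 transcript). RNA came from BE(2)C, an established human neuroblastoma cell line with amplified MYCN, grown in DMEM with serum. One culture received an siRNA against MYCN, labelled MYCN2, and the other a non-targeting control siRNA from a different supplier. Both were transfected with the same lipid reagent, and total RNA was taken 36 hours later and hybridised to Affymetrix Human Gene 2.0 ST arrays. Each group is 1 array, from 1 cell line and, for the knockdown, 1 siRNA sequence, so there is no replicate and no p-value. The control sample's title also bears the word "reanalysis", which the labels do not explain, so whether that array was run alongside the other is unknown, and each difference below rests on it.

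Purine nucleotides are built step by step on a ribose phosphate. PFAS, phosphoribosylformylglycinamidine synthase, adds a glutamine nitrogen to the growing ring, and the finished product, IMP, is then turned into AMP or GMP. IMPDH2, the second isozyme of IMP dehydrogenase, carries out the rate-limiting oxidation on the way to GMP. CTP synthase takes a glutamine nitrogen to convert UTP into CTP, the last step to the cytidine nucleotides, and humans have it as CTPS1, which proliferating lymphocytes depend on, and CTPS2. MYC proteins bind DNA as dimers with MAX at E-box sequences, and nucleotide synthesis enzymes are among the genes reported as their targets.

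The bases upstream of the annotated starts are shown because 3 of the 4 genes were lower in the MYCN siRNA array and E-boxes are the sites MYC proteins are known to recognise. RefSeq promoter windows of GRCh38.p14 (250 bases before to 50 after a start) matched 3 of the 4 genes, with 1 start for PFAS and more than 1 for each CTP synthase. IMPDH2 was not matched. The first listed start of each gene is printed, up to the base before the start, with any searched hexamer in capitals.
PFAS promoter, chr17:8249039-8249288, plus strand: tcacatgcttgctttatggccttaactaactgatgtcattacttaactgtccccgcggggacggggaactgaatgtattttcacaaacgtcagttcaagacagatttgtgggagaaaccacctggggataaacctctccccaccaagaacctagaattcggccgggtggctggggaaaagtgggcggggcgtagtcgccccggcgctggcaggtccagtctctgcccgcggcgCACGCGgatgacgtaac
CTPS1 promoter, chr1:40979446-40979695, plus strand: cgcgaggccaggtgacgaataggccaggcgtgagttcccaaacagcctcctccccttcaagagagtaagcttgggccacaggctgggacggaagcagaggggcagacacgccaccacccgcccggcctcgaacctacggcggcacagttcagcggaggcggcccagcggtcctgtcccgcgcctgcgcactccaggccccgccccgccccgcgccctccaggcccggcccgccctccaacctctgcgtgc
CTPS2 promoter, chrX:16712670-16712919, minus strand: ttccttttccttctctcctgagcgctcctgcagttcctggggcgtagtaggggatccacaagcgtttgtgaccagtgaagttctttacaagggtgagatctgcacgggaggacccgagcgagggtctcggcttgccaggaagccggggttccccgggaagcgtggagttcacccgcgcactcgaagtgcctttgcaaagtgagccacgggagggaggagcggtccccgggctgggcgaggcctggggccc

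The search covered the canonical E-box CACGTG, which reads the same on both strands, and 3 variants of it (CACGCG, then CATGCG, then CACGAG), each on both strands, in all 300 bases of the window. PFAS held CACGCG, the capitals above, with its first base at -17 from the start. CTPS1 held CATGCG on both strands in overlapping positions, with first bases at 39 and 41, after the start and so outside the printed stretch. No searched hexamer stood in the other window of CTPS1 or in either window of CTPS2, and CACGTG stood in none of the 5 windows. Of 35116 promoter windows in the table, 7.26% held CACGTG, 11.4% CACGCG, 7.05% CATGCG, 6.78% CACGAG and 27.3% at least 1 of the 4, so such matches are common. The printed stretches were 56.0% (PFAS), 72.0% (CTPS1) and 63.6% (CTPS2) G or C. The hexamers were chosen after the array values were known, and no binding was measured. Whether these sites bear on the differences was not tested.

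PFAS was the member furthest below the control. Its RMA value, the authors' log2 summary of a probe set, was 9.42 in the control siRNA array and 8.21 in the MYCN siRNA array. The difference, MYCN siRNA minus control siRNA on the log2 scale here and below, was −1.20, a level 2.31-fold lower. In both arrays the probe set was bright: the array medians over all rows were 4.60 and 4.55, and PFAS lay over 94.6% of the rows with control siRNA and 88.3% with MYCN siRNA.

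IMPDH2 was lower by less. Its value was 9.38 in the control siRNA array and 8.69 in the MYCN siRNA array, a difference of −0.70 (1.62-fold lower). It too stayed well over the array medians, with 91.3% of rows under it after MYCN siRNA.

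The differences of the CTP synthases had opposite signs, but that of CTPS2 was small, within the spread between probe sets given below. CTPS1 was at 8.77 in the control siRNA array and 8.08 in the MYCN siRNA array, a difference of −0.68 (1.61-fold lower). CTPS2 was at 8.65 in the control siRNA array and 8.89 in the MYCN siRNA array, a difference of 0.24 (1.18-fold higher). The difference of CTPS1 thus lay 0.92 below that of CTPS2 on the log2 scale, a 1.89-fold shift of CTPS1 relative to CTPS2 between the arrays. Which synthase was the more abundant cannot be read from these values, since levels of different probe sets are not comparable.

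**Figure D1:**
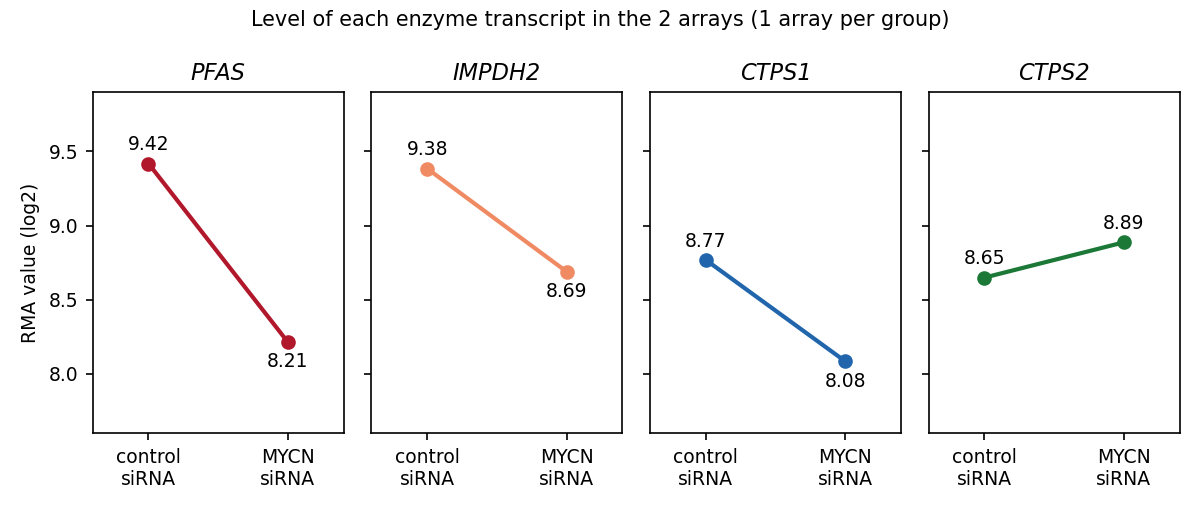
RMA value (log2, vertical axis, not starting at 0) of PFAS, IMPDH2, CTPS1 and CTPS2 in the control siRNA and MYCN siRNA arrays; each point is 1 array, without error bars because there are no replicates. PFAS goes from 9.42 to 8.21, IMPDH2 from 9.38 to 8.69 and CTPS1 from 8.77 to 8.08, while CTPS2 goes from 8.65 to 8.89; heights are not comparable between genes.

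One spread these arrays give is between probe sets that read the same gene. For 374 measured coding genes read by several probe sets, the first pair of each was compared, and the differences had an SD of 0.32 for a single probe set. A further 21 genes were left out because their compared probe sets had identical values. The yardstick of 0.32 leaves out spread between cultures and between hybridisations. It was not matched to the enzymes for brightness. Genes counted as measured on the mean of their probe sets, so a pair could hold a dim one. The differences of all measured genes had a wider SD, 0.43. For genes of like brightness to each enzyme (mean level within 0.5) it was 0.41 to 0.45. In SDs of a single probe set, PFAS lay 3.80 from 0, IMPDH2 2.19 and CTPS1 2.16. CTPS2 lay 0.75 such SDs from 0, within the spread. Counted in the wider SDs of measured genes, each enzyme would lie fewer SDs from 0. Of the 374 pairs, 16 (4.28%) lay as far apart as CTPS1 and CTPS2 or further. These synthases were picked for their contrast, so that share describes the gap and tests nothing. IMPDH2 and CTPS1 differed by 0.01, so their differences cannot be put in order, and PFAS lay 0.51 below IMPDH2, a gap that 23.0% of the pairs reached.

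The 4 genes can also be placed among all measured genes. A gene counted as measured if it reached the array median in at least 1 array, which 10592 genes did. Of these, 60 (0.566%) were as low as PFAS or lower, 387 (3.65%) as low as IMPDH2 and 410 (3.87%) as low as CTPS1. CTPS2 stood in the body of the distribution, with 2896 genes (27.3%) as high or higher. Among genes of like brightness (mean level within 0.5), 18 of 1336 (1.35%) were as low as PFAS, 52 of 1197 (4.34%) as low as IMPDH2 and 99 of 1565 (6.33%) as low as CTPS1, and 419 of 1365 (30.7%) were as high as CTPS2. The genes were chosen with their differences known, so these places describe them and test nothing.

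**Figure D2:**
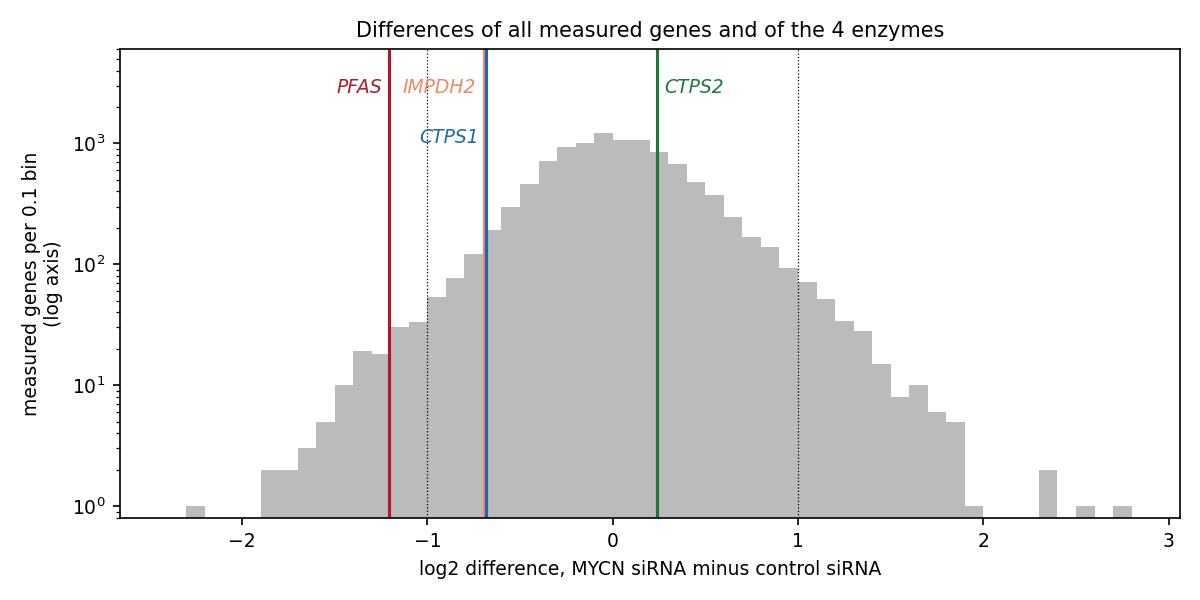
Number of measured genes (vertical axis, log scale) in each bin of 0.1 of the log2 difference, MYCN siRNA minus control siRNA (horizontal axis), with coloured lines at the 4 enzymes and dotted lines at 2-fold. PFAS at −1.20 is in the lower tail, past the dotted line; IMPDH2 at −0.70 and CTPS1 at −0.68 nearly coincide inside it, and CTPS2 at 0.24 lies among the bulk of genes.

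Around PFAS in the purine pathway, each measured enzyme that builds the ring was lower. Apart from PFAS, which was chosen with its value known, these were 3 of 3 measured of 5 listed, with a median difference of −0.53. Over all measured genes the median was 0.01, and 48.0% were lower and 50.9% higher. The same shares apply to the counts of lower and higher genes further below. PPAT, the amidotransferase of the committed step, went from 9.46 to 8.92 (−0.54). ADSL, adenylosuccinate lyase, which acts in ring synthesis and again on the way to AMP, went from 8.26 to 7.74 (−0.53), and ATIC, which closes the ring, from 10.7 to 10.5 (−0.24), a difference within the spread between probe sets. PFAS was the 1 member that was at least 2-fold lower, where 1.16% of all measured genes were. GART and PAICS, which carry the other steps, were not analysed here.

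The sugar on which the ring is built comes from the pentose phosphate pathway, and its genes went both ways. Of 11 measured members of the ribose phosphate list, 6 were lower and 5 higher, with a median of −0.14. RPIA, which makes ribose 5-phosphate, went from 6.96 to 6.19 (−0.77, 1.71-fold lower), the lowest of the list. The 2 widely expressed synthetases of PRPP, the activated sugar that PPAT uses, were lower as well: PRPS1 went from 9.97 to 9.36 (−0.62, 1.53-fold lower) and PRPS2 from 10.5 to 10.1 (−0.43). PRPS1 has a close copy, PRPS1L1, which was dim at 5.23 and 4.71, so their values may not be fully separate. PGLS, a lactonase of the oxidative branch, was the highest at 0.45.

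Beyond IMP, 4 of the 5 measured genes of the AMP and GMP branches were lower, with a median of −0.33; without IMPDH2 they were 3 of 4, with a median of −0.23. In the GMP branch IMPDH1, the isozyme of IMPDH2, went from 9.67 to 9.34 (−0.33), and GMPS, which follows IMP dehydrogenase, from 10.2 to 10.1 (−0.12). In the AMP branch ADSS1 was dim, at 5.21 and 5.41 (0.20), and its isozyme ADSS2 was not analysed here. The difference of IMPDH2 was therefore the largest of the branch in these arrays, but 38.5% of probe set pairs of 1 gene lay as far apart as IMPDH2 and IMPDH1.

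GMPR, GMP reductase, which returns GMP to IMP and so opposes IMPDH2 and GMPS, was the highest gene of the purine salvage and interconversion list. It went from 5.59 in the control siRNA array to 6.99 in the MYCN siRNA array (1.41, 2.65-fold higher), where 2.21% of all measured genes were at least 2-fold higher. Its control value lay nearer to the array median of 4.60 than those of the 4 enzymes. With an offset of 16 on linear values its difference was 1.16, and 124 of 10604 measured genes were at least 2-fold higher. Of the 11 measured genes of this list, 7 were lower and 4 higher (median −0.17), one of the 7 being ADA at −0.04, which turned to 0.01 after median centring and after loess. MTAP, which recovers adenine from methylthioadenosine, was the lowest, from 7.28 to 6.65 (−0.64, 1.55-fold lower). HPRT1, which salvages hypoxanthine and guanine, went from 8.64 to 8.07 (−0.57), and APRT, its adenine counterpart, from 8.55 to 8.30 (−0.25).

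Upstream of the CTP synthases, both measured enzymes that lead to UMP were lower. DHODH, the mitochondrial dihydroorotate dehydrogenase, went from 7.52 to 7.00 (−0.52), and UMPS, which makes UMP, from 9.19 to 8.78 (−0.41). CAD, which starts the pathway, was not analysed here. CTPS1, with its −0.68, lay beyond both, and CTPS2 lay on the other side of 0.

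Among the 5 measured genes of CTP and dTMP synthesis, 3 were lower and 2 higher, with a median of −0.35, and without the CTP synthases 2 of 3 were lower. DCTD, dCMP deaminase, which turns a cytidine nucleotide towards thymidylate, was the lowest: 8.69 in the control siRNA array and 7.71 in the MYCN siRNA array (−0.98, 1.97-fold lower). DUT, the dUTPase, went from 5.45 to 5.10 (−0.35). TYMS, thymidylate synthase, was at 9.93 and 9.97 (0.04) and thus nearly level. Ribonucleotide reductase, which makes the deoxynucleotides, had RRM1 at −0.02, which turned to 0.03 after median centring and to 0.01 after quantile normalization, and RRM2 at 0.15. RRM2B, the p53-inducible small subunit, went from 6.54 to 7.50 (0.96, 1.95-fold higher).

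**Figure D3:**
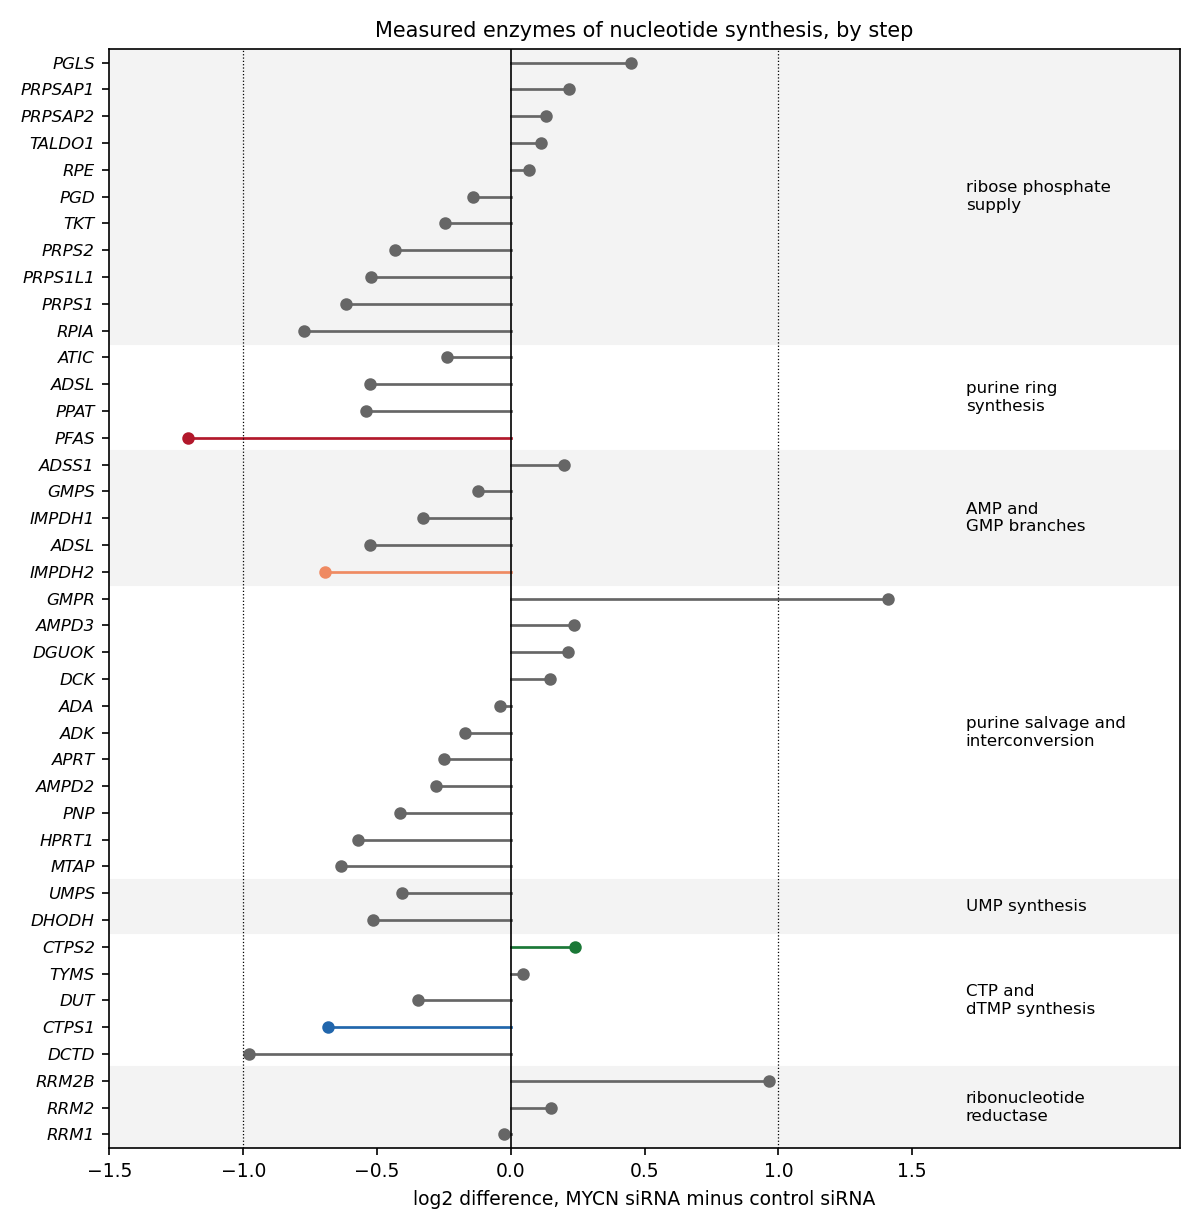
Log2 difference, MYCN siRNA minus control siRNA (horizontal axis), of each measured gene of 7 steps of nucleotide synthesis (vertical axis, grouped by step; ADSL stands in 2 groups), 1 array per group, dotted lines at 2-fold. The measured genes of ring synthesis and of UMP synthesis all lie left of 0, with PFAS at −1.20 the furthest left, while GMPR at 1.41 and RRM2B at 0.96 lie furthest right.

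Isozymes of 1 reaction allow each enzyme to be set against its partner. Of 7 listed pairs, 5 had both members measured, and the values of each are given side by side. CTPS1 and CTPS2, picked for their contrast, had opposite signs and lay 0.92 apart, though CTPS2 itself lay within the spread of 0. RRM2 and RRM2B were 0.81 apart, both above 0, a gap that 6.15% of probe set pairs of 1 gene reached. UCK2 and UCK1, the uridine-cytidine kinases of salvage, were at −0.52 and −0.05 and so 0.47 apart; UCK1 turned to 0.003 after median centring, which gives that pair opposite signs too. IMPDH2 lay 0.37 below IMPDH1, and PRPS2 lay 0.18 above PRPS1. The spread between probe sets covers gaps of the size of these last 3 pairs, which 26.2%, 38.5% and 60.4% of probe set pairs reached.

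**Figure D4:**
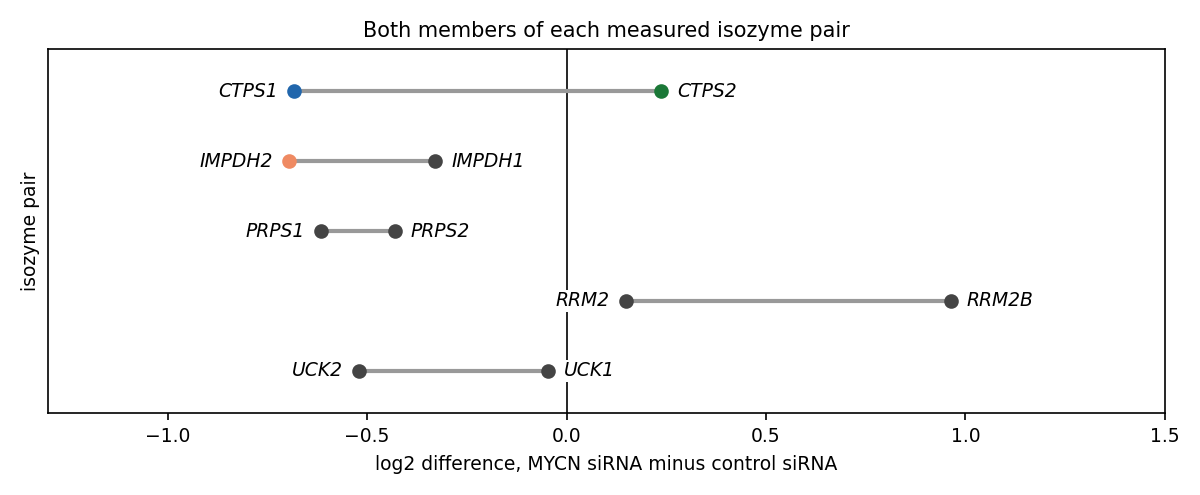
Log2 difference, MYCN siRNA minus control siRNA (horizontal axis), of both genes of each of the 5 measured isozyme pairs (1 row per pair, joined by a grey line), 1 array per group. The line of CTPS1 (−0.68) and CTPS2 (0.24) crosses 0, and that of RRM2 (0.15) and RRM2B (0.96) lies right of it; both IMP dehydrogenases lie left of 0.

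PFAS and the CTP synthases belong to the glutamine amidotransferases, enzymes that take nitrogen from glutamine. Of 8 measured members of that list, 5 were lower and 3 higher, with a median of −0.18; without PFAS and the CTP synthases 3 of 5 were lower, with a median of −0.12. Outside nucleotide synthesis, ASNS, asparagine synthetase, went from 7.02 to 6.79 (−0.23). GFPT1, which starts hexosamine synthesis, went from 8.86 to 9.06 (0.20), close to the 0.24 of CTPS2, and NADSYN1, of NAD synthesis, was at 5.38 and 5.48 (0.10).

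The 13 lists (isozyme pairs not counted) hold 109 different genes, of which the platform annotation named 68. Of these, 63 were measured, 40 lower and 23 higher, with a median of −0.15. Over all measured genes 48.0% were lower and 50.9% higher. The shares below thus leave out list genes that were not named. At least 1.5-fold lower were 9 (14.3%), against 5.79% of all measured genes, and at least 1.5-fold higher were 3 (4.76%), against 8.81%. PFAS, IMPDH2 and CTPS1 are 3 of the 9. Without the 4 enzymes 37 of 59 genes were lower, the median was −0.14, 6 genes (10.2%) were 1.5-fold lower and 3 (5.08%) were 1.5-fold higher. The share at least 1.5-fold lower was thus smaller without the 4 enzymes, and these lists were made with earlier results known.

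The genes next to each enzyme in RefSeq order give a local comparison. PFAS stands between CTC1, a telomere maintenance protein, at −0.09, and SLC25A35, not analysed here; further out, AURKB, the mitotic kinase, was at −0.35 and RANGRF at −0.25. Next to IMPDH2, QRICH1 was at 0.06, QARS1, the glutaminyl-tRNA synthetase, at 0.02 and DALRD3 at 0.46. Beside CTPS1, SCMH1, a polycomb protein, went from 9.36 to 8.59 (−0.77), a difference further below 0 than that of CTPS1, and SLFNL1 was at −0.01. Near CTPS2, SYAP1 was at 0.17. The other adjacent genes were not analysed here or lay under the array medians. The measured neighbours of PFAS and IMPDH2 were thus less far below 0 than these enzymes or above it, and a neighbour of CTPS1 was not.

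The likeness of other genes was taken as the distance between log2 differences over the 2 arrays. Nearest to PFAS were POLR3E, a subunit of RNA polymerase III, at −1.21 and RRP12, a ribosome biogenesis factor, at −1.21. Nearest to IMPDH2 were UNG, uracil DNA glycosylase, and HROB, a homologous recombination factor, both at −0.70. Nearest to CTPS1 were NME6, a nucleoside diphosphate kinase family member, at −0.68 and GEMIN4, of the SMN complex, at −0.69, and nearest to CTPS2 were SEC31B and ZNF300, both at 0.24. With 2 arrays many genes are nearly tied: of 9376 measured protein-coding genes, 26 lay within 0.05 of PFAS, 132 of IMPDH2, 136 of CTPS1 and 797 of CTPS2.

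The labelled cell type was checked on 13 adrenergic neuroblastoma markers. All 13 were measured, at levels of 6.47 to 11.7 in the control siRNA array and 6.53 to 11.7 in the MYCN siRNA array. Their median difference was 0.12, with 10 higher and 3 lower, from ISL1, a LIM homeobox factor, at −0.43 to DBH, which makes noradrenaline, at 1.45. Over all measured genes 50.9% were higher and 48.0% lower. Of 16 markers of fibroblast, immune, endothelial and epithelial cells, 7 were named. Their levels ran from 2.86 to 6.54 and from 2.93 to 5.37, and LUM, lumican, a fibroblast marker, was the brightest, at 6.54 and 5.37. Their part in the differences of the 4 enzymes was not tested. MYCN itself was not analysed here and the depth of its knockdown is unknown, and near-equal array distributions hide any change in total RNA per cell.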

How the data were processed

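Labelling used the WT PLUS kit on 100 ng of RNA from each culture, per the labels' protocols, with 1 array per group. The authors deposited log2 values made with RMA, per the submitters' processing notes. The software, and which arrays it normalized together, were not given in the sources used here. Values of the 46255 rows ran from 0.85 to 13.5, and the sorted values of the arrays lay within 0.13 of each other, a log2 scale without centring. The platform annotation named 15835 rows, and all matched RefSeq (GRCh38.p14) by gene identifier, giving 14812 genes; probe sets of a gene were averaged. Genes at or above the array median in at least 1 array were counted as measured (71.5%). Python 3.11.15 with pandas 2.3.3 and statsmodels 0.14.6 was used. The fold threshold and the SD between probe sets were tried on simulated data. The normalizations were tried on these arrays with a constant added to the MYCN siRNA array. The other steps were not tested in this way.

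With 1 array per group no test was run. Folds are powers of 2 of the log2 difference, and precision is limited by the number of arrays. The 4 enzymes and the gene lists were chosen with earlier results of these data known. Named are the 4 enzymes, list members at least 1.5-fold apart between the arrays, the highest and lowest of each list, the isozyme pairs and the 2 genes nearest to each enzyme in difference. Other list members and neighbouring genes were named after their values were seen. Alternatives were median centring, quantile and loess (span 0.3) normalization, an offset of 16 on linear values, the brightest probe set, no filter or one at the 70th percentile, and a threshold of 1.5-fold.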

Additional observations from a re-analysis of the deposited data

How the results depend on the processing

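The differences of the 4 enzymes and the gap between the CTP synthases kept their direction and moved by less than the spread between probe sets under each of the 5 alternatives tried for them. PFAS ranged from −1.21 to −1.16, IMPDH2 from −0.70 to −0.65, CTPS1 from −0.70 to −0.63, CTPS2 from 0.23 to 0.29 and the gap from −0.94 to −0.88. Each enzyme has 1 probe set, so the brightest probe set is the same value by construction. Median centring shifts each array by a constant, so the gap cannot change under it either. The count of list genes past 2-fold was 2 of 63 measured, PFAS lower and GMPR higher. It was 4 after median centring (1 lower, 3 higher, with RRM2B and CDS2 added) and 4 after quantile normalization (2 lower, 2 higher, with DCTD and CDS2 added). After loess 2 were lower, with DCTD added, and 1 was higher. At a threshold of 1.5-fold it was 12 (9 lower, 3 higher). The list genes added by normalization lay just under 2-fold as deposited. The count was 2 under the other alternatives, namely the offset, the brightest probe set and both filters. Counts over all measured genes moved as well. As deposited, 123 of 10592 (1.16%) were at least 2-fold lower and 234 (2.21%) higher. After median centring they were 106 and 287, after quantile normalization 131 and 222, and after loess 129 and 240. With the offset of 16 they were fewest, 87 lower and 124 higher of 10604. At 1.5-fold they were 613 (5.79%) and 933 (8.81%), against 14.3% and 4.76% of the list genes. No paired analysis was possible because each group has 1 array. Without replicates these ranges describe the processing and not the spread between cultures, and genes near the array medians are not shown to be above background.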

Other observations

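Genes that use, phosphorylate, salvage or break down nucleotides went both ways. Over all measured genes 48.0% were lower and 50.9% higher. CDS2, which uses CTP to make CDP-diacylglycerol for phospholipid synthesis, went from 8.59 in the control siRNA array to 9.57 in the MYCN siRNA array (difference 0.99, 1.98-fold higher). CMAS, which uses CTP to activate sialic acid, was at 0.22, and CDS1 lay under the array medians. Of 8 measured nucleotide kinases 6 were lower (median −0.17), one of them, DTYMK, at −0.02, which turned to 0.03 after median centring and 0.02 after quantile normalization. NME6 went from 6.15 to 5.47 (−0.68, 1.61-fold lower) and AK3, a mitochondrial adenylate kinase, from 8.01 to 7.42 (−0.59, 1.51-fold lower), and GUK1, guanylate kinase, was the highest at 0.11. Of 5 breakdown genes 4 were lower (median −0.14), from ITPA, which clears inosine triphosphate, at −0.56 to SAMHD1, the dNTP hydrolase, at 0.16. Of 5 pyrimidine salvage genes 3 were lower (median −0.05), from UCK2 at −0.52 to UPP1, uridine phosphorylase, at 0.22. None of the 7 listed nucleoside transporters was analysed here.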
